A study of Mus musculus with 12 samples.

Results

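The genes described here restrain growth factor and stress signalling: the MAP kinase phosphatases Dusp1, Dusp2, Dusp4, Dusp6, Dusp8, Dusp10, Dusp14 and Dusp16, and the Sprouty genes Spry1 and Spry2. They were chosen by name, as every probe set of the array whose single gene symbol was 1 of these 10 symbols. The rule itself uses no measured value, but these genes were picked with earlier results of the same data known. The rule found 11 probe sets of 9 genes among the 22690 probe sets of the table, in which 12393 genes were named by a probe set of their own. Dusp10 and Spry2 had 2 probe sets each. Dusp4 was not analysed here.

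All animals were female C57BL/6 mice, wild type and 10 weeks old, and the tissue was spinal cord. Injured cords had been cut across 80% of their width after a laminectomy, the opening of the bone over the cord, and control cords had the laminectomy alone. The sample titles call the controls naive, but they were operated on, so they are called sham here. At 9 hours, 2.5 cm of cord around the operated site was homogenised, total RNA was isolated from a small aliquot, and polysome-bound RNA, the messages that carry several ribosomes, was recovered from the bulk of the lysate by density fractionation in sucrose. The 12 Affymetrix arrays form 4 groups of 3 biological replicates: sham total, injured total, sham polysome and injured polysome. The labels do not say whether a replicate was 1 animal or several pooled, and sham animals also had the laminectomy, so no group here was free of surgery. Values are log2 expression values, and a change of 1 on that scale is a 2-fold change.

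As background, MAP kinases are switched on by phosphorylation of a threonine and a tyrosine, and dual specificity phosphatases of the MAP kinase phosphatase family remove both phosphates. Dusp1 and Dusp2 encode nuclear enzymes made as immediate early products, Dusp6 a cytoplasmic enzyme selective for ERK, and Dusp8, Dusp10 and Dusp16 enzymes that favour the stress kinases JNK and p38. Sprouty proteins act upstream, at the membrane, where they damp the route from receptor tyrosine kinases through Ras to ERK. Several of these genes are themselves transcribed in response to MAP kinase activity, which makes them feedback inhibitors.

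RefSeq promoters of 300 bases (around the start of the gene, mostly upstream of it, assembly GRCm38.p6) were matched for 9 of the 10 genes. Those of 4 genes are shown, because Dusp1, Dusp6 and Spry2 had the largest estimated changes in total RNA after injury and Dusp8 had the larger of the 2 falls. They run 5′ to 3′ in the direction of the gene, and capitals mark matches to the cAMP response element TGACGTCA, to its core TGACG or to the ETS core CCGGAA, searched on both strands. The Dusp1 promoter lies on the minus strand at chr17:26508423-26508722, that of Dusp8 on the minus strand at chr7:142095235-142095534, that of Dusp6 on the plus strand at chr10:99262981-99263280 and that of Spry2 on the minus strand at chr14:105896770-105897069.
Dusp1: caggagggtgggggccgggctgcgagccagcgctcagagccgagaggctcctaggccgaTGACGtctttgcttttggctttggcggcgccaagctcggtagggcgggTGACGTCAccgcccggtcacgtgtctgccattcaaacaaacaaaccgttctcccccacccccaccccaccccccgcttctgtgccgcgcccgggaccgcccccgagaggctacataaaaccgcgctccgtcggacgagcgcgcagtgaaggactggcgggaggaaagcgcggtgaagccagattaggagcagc
Dusp8: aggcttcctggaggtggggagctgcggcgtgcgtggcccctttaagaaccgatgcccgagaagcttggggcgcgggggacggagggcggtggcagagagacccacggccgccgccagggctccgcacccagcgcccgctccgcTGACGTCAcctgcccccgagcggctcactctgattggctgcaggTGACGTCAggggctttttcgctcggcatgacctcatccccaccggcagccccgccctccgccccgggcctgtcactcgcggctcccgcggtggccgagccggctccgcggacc
Dusp6: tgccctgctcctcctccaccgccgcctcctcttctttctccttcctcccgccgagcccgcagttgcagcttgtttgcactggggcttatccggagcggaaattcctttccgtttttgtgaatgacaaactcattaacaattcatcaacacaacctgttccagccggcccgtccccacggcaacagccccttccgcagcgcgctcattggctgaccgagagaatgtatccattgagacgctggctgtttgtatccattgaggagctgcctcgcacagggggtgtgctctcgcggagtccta
Spry2: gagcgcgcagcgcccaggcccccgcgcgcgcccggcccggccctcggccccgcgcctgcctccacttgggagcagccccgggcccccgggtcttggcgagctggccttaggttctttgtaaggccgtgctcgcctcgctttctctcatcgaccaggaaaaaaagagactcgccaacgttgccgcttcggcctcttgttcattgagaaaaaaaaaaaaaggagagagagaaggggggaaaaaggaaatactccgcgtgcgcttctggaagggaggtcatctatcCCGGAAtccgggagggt

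The full cAMP response element TGACGTCA was present in the Dusp1 promoter, 143 bases upstream of the start, and at 2 places in the Dusp8 promoter, 107 and 63 bases upstream. These were 2 of the 9 promoters, and 1.79% of all 32851 promoters of the same length held this word. The core TGACG, which every full element contains, was in 4 of the 9 (Dusp1, Dusp2, Dusp8 and Dusp16) and in 20.8% of all promoters. CCGGAA was found in Dusp14 and Spry2, against 14.9% of all promoters. None of the 9 promoters held the AP-1 word TGANTCA (7.81% of all promoters), the CArG box (1.63%) or the NF-kB site (4.51%). A match is a description of the letters in this window, and its part in any change of RNA was not tested.

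All 11 probe sets passed the filter on low values, which 16555 of the 20380 probe sets with 1 gene symbol passed. Background on each array was taken as the brightest of 27 control probe sets for organisms absent from the tissue. Of the member probe sets, 8 stood above it on every array. Spry2 1421656_at was above it on 0 of 12 arrays, and Dusp2 and Dusp10 1417163_at were above it on 2 or 3 arrays of each group. The neuronal, astrocyte and oligodendrocyte markers that passed the filter numbered 10, 7 and 5. Neutrophil, lymphocyte and skeletal muscle markers passed it too, 8, 5 and 5 genes, so passing does not identify the tissue. Arrays of 1 group correlated at 0.994 to 0.998. A measure of RNA quality moved with the groups: the log2 difference between 3′ and 5′ Gapdh probe sets rose from 0.23 ± 0.05 (SD, n = 3) to 1.40 ± 0.22 in total RNA and from 0.87 ± 0.03 to 2.83 ± 0.27 on polysomes. The median of the hybridization controls, added in fixed amounts, fell by 0.48 and by 0.32 with injury (exact two-sided permutation test, p = 0.1 for each of these 4 differences, the smallest that 3 against 3 arrays allow). The part of these shifts in the results was not tested.

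**Figure D1:**
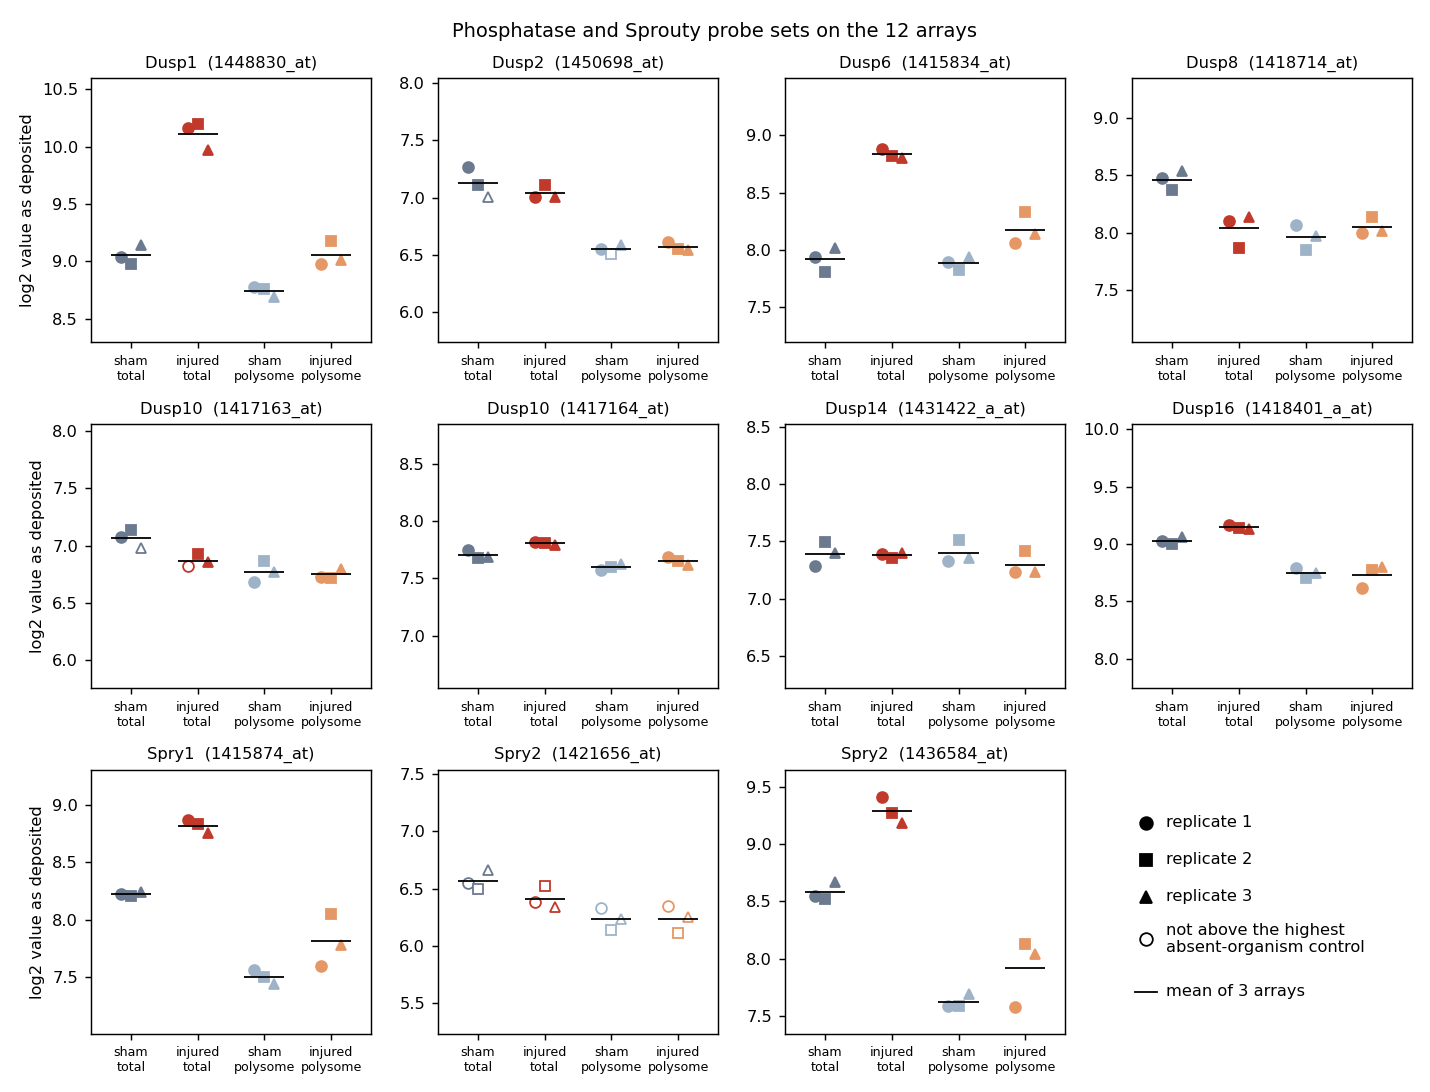
Log2 expression value (vertical axis) of the 11 probe sets on each of the 12 arrays, 1 point per array and 1 panel per probe set, in the 4 groups along the horizontal axis, with bars at the group means. Dusp1, Dusp6, Spry1 and Spry2 1436584_at stand highest in injured total RNA, while Dusp8 stands highest in sham total RNA.

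Dusp1, the immediate early phosphatase, rose most of the members in total RNA. Its log2 values were 9.04, 8.98 and 9.14 in sham and 10.16, 10.20 and 9.97 in injured total RNA. No injured array overlapped a sham array. The change was 1.06 (SE 0.08), a 2.08-fold rise with an adjusted p of 3.2e-07, and 0.852% of all probe sets tested rose more. In this bulk tissue, more RNA per cell and more cells of a type that makes it cannot be told apart. On polysomes the values were 8.78, 8.76 and 8.69 in sham and 8.98, 9.18 and 9.01 in injured cord, again without overlap, and the rise was 0.31 (SE 0.08, adjusted p = 0.0055), or 1.24-fold.

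Ordered by level, Dusp1 was highest in injured total RNA, 1.05 above injured polysomes. Injured polysomes and sham total RNA overlapped, with means of 9.06 ± 0.11 and 9.05 ± 0.08, and sham polysomes were lowest at 8.74 ± 0.04. The 3 genes whose pattern was most like that of Dusp1 over the 12 arrays were Klf6, Ptpn12 and Gpr84, with root mean square differences of 0.09, 0.10 and 0.10 after centring. Klf6, a zinc finger transcription factor, rose by 1.04 (SE 0.09) in total RNA and by 0.40 on polysomes.

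Dusp2, the other nuclear immediate early phosphatase, had no such rise. Its values were 7.27, 7.11 and 7.01 in sham and 7.01, 7.11 and 7.01 in injured total RNA, so the groups overlapped. The difference was -0.09 (95% interval -0.22 to 0.04, adjusted p = 0.21). On polysomes it was 0.02 (adjusted p = 0.85). These values sat close to background, so they give little information on a change.

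Dusp6, the cytoplasmic phosphatase of ERK, had the next largest rise of the members in total RNA after Dusp1. It read 7.94, 7.81 and 8.02 in sham and 8.88, 8.82 and 8.80 in injured total RNA, with a wide gap between the groups. The change was 0.91 (SE 0.07, adjusted p = 7e-07), or 1.88-fold, and 1.24% of all probe sets rose more. On polysomes it went from 7.89, 7.82 and 7.94 to 8.06, 8.33 and 8.14, a rise of 0.30 (SE 0.07, adjusted p = 0.006). Unlike Dusp1, Dusp6 had sham total and sham polysome values that overlapped (means 7.92 ± 0.11 and 7.88 ± 0.06), and injured polysomes lay 0.25 above sham total RNA without overlap.

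The Sprouty genes also rose in total RNA. Spry1 read 8.22, 8.21 and 8.24 in sham and 8.87, 8.83 and 8.76 in injured total RNA, a change of 0.60 (SE 0.09, adjusted p = 7.9e-05) or 1.51-fold. Spry2, by the probe set 1436584_at, read 8.55, 8.52 and 8.67 and then 9.41, 9.27 and 9.18, a change of 0.70 (SE 0.11, adjusted p = 0.00015) or 1.63-fold. Neither gene's groups overlapped. The second Spry2 probe set, 1421656_at, did not exceed background on any array and gave -0.15 (adjusted p = 0.073), so it gives no level of the gene.

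On polysomes Spry1 passed the threshold and Spry2 did not, and both values depended on single arrays. Spry1 went from 7.56, 7.50 and 7.44 to 7.60, 8.05 and 7.78, a rise of 0.31 (SE 0.09, adjusted p = 0.012). The groups did not overlap, but injured replicate 1 lay only just above the sham arrays. The rise of Spry1 was 0.19 without injured polysome replicate 2, and it missed the threshold without sham polysome replicate 3 (0.28, adjusted p = 0.05). Spry2 1436584_at went from 7.59, 7.59 and 7.69 to 7.58, 8.13 and 8.04, and here the groups overlapped. Its change was 0.29 (SE 0.11, 95% interval 0.05 to 0.53, adjusted p = 0.052). It was 0.46 without injured polysome replicate 1 (adjusted p = 0.00037) and 0.18 without replicate 2. Injured polysome replicates 1 and 2 had the lowest array weights of the 12, 0.223 and 0.406, against 0.869 to 2.01 for the others.

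Among the phosphatases of the stress kinases, Dusp8 went the other way. Its values were 8.48, 8.37 and 8.54 in sham and 8.10, 7.87 and 8.14 in injured total RNA, with no overlap. It fell by 0.43 on the log2 scale (SE 0.08, adjusted p = 6e-04), a 1.34-fold fall. On polysomes it read 8.07, 7.85 and 7.97 in sham and 8.0, 8.14 and 8.01 in injured cord, overlapping groups that differed by 0.09 (adjusted p = 0.43). The fall in total RNA was lost when arrays were centred on the hybridization controls (0.06, adjusted p = 0.56).

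Dusp10 and Dusp16 moved little. Dusp10 1417163_at, near background, fell by 0.20 in total RNA (SE 0.06, adjusted p = 0.0096), and its second probe set 1417164_at, well above background, differed by 0.10 in the opposite direction (95% interval -0.01 to 0.20, adjusted p = 0.092). The probe sets of Dusp10 thus did not give 1 direction, and the fall was lost after quantile normalization. Dusp16 read 9.03, 9.00 and 9.06 in sham and 9.17, 9.14 and 9.13 in injured total RNA, groups that did not overlap but differed by only 0.12 (95% interval -0.01 to 0.25, adjusted p = 0.11). On polysomes Dusp10 differed by -0.02 and 0.05 and Dusp16 by -0.02, none past the threshold (adjusted p from 0.42 to 0.86).

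Dusp14, a small atypical member that lacks the kinase-binding domain of the others, was flat. It read 7.28, 7.49 and 7.40 in sham and 7.39, 7.35 and 7.40 in injured total RNA. The difference was -0.01 (95% interval -0.16 to 0.14, adjusted p = 0.89), and on polysomes it was -0.11 (adjusted p = 0.25).

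**Figure D2:**
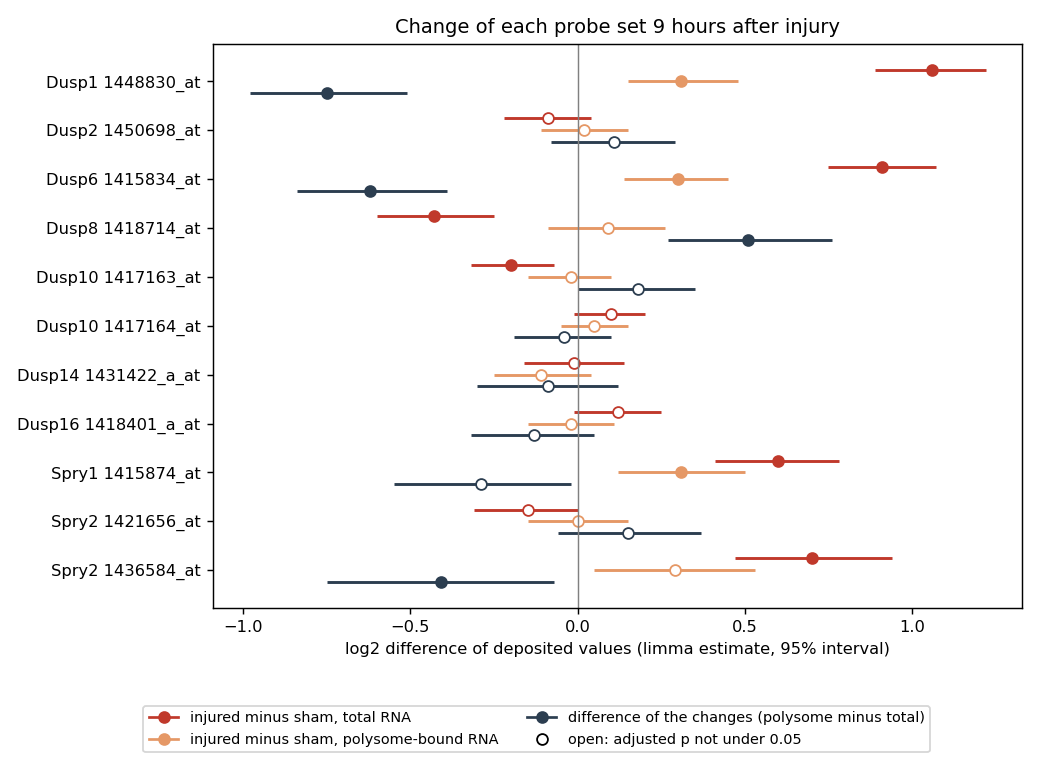
Log2 change with injury (horizontal axis) of each of the 11 probe sets (rows) in total RNA, on polysomes and as the difference of those changes, with 95% intervals from limma. Dusp1 and Dusp6 have the largest rises in total RNA, 1.06 and 0.91, and smaller rises on polysomes, 0.31 and 0.30.

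Counted together, 6 of the 11 probe sets changed in total RNA, 4 higher and 2 lower. Injury moved 59.8% of all probe sets tested, 37.4% higher and 22.4% lower, so the share of members called was near the background and the sizes of the rises, not their number, set Dusp1 and Dusp6 toward the top of the array. Groups did not overlap for 8 of the 11 members, against 72.5% of all probe sets. The median change was 0.10 over the members and 0.08 over all probe sets. On polysomes 3 of the 11 rose and 0 fell (limma; Dusp1, Dusp6 and Spry1), where 11.8% of all probe sets rose and 27% fell, 38.8% in all. The 3 that rose were also the 3 whose groups did not overlap, against 46.1% of all probe sets.

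The scale of the arrays moved these shares for the array as a whole. Of all polysome calls, 30.4% were higher on the deposited values, 52.1% after centring arrays on their medians, 49.2% after quantile normalization and 93.2% after centring on the hybridization controls. In total RNA the corresponding shares were 62.5%, 62%, 51% and 98.3%. The rises of Dusp1, Dusp6, Spry1 and Spry2 1436584_at in total RNA, and of Dusp1 and Dusp6 on polysomes, passed the threshold under each of these scalings. The last scaling adds 0.48 to every change in total RNA and 0.32 to every change on polysomes, so falls smaller than that turn into rises under it.

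**Figure D3:**
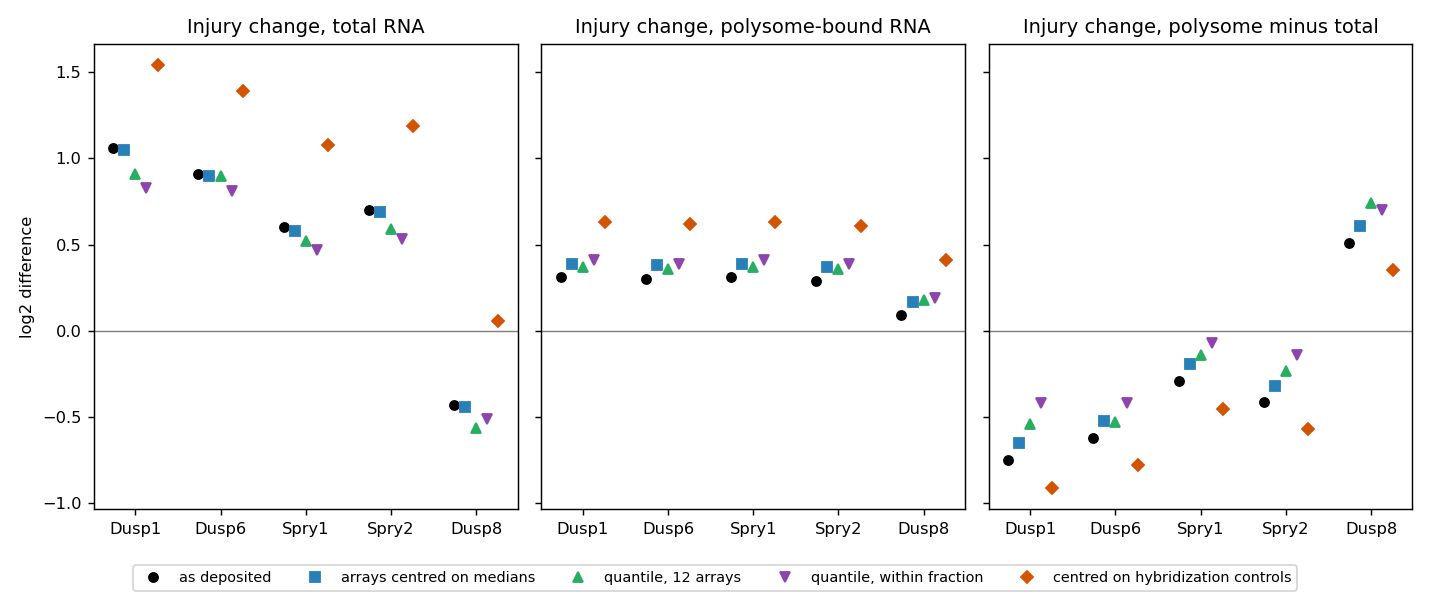
Log2 difference (vertical axis) of Dusp1, Dusp6, Spry1, Spry2 1436584_at and Dusp8 (horizontal axis) with injury in total RNA, on polysomes and as the polysome change minus the total change (3 panels), each as deposited and after 4 other scalings of the arrays (symbols). The total RNA values of Dusp1 lie between 0.83 and 1.54, and Dusp8 crosses 0 in total RNA with hybridization controls (0.06).

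Comparing the fractions directly asks whether messages on ribosomes followed the change in amount. The change of loading is the injury change on polysomes minus that in total RNA, so a negative value means that the polysome fraction rose less. It passed the threshold for 4 of the 11 probe sets, 3 lower and 1 higher, where 50.5% of all probe sets did, 37% lower and 13.5% higher. Dusp1 gave -0.75 (SE 0.11, adjusted p = 0.00015) and Dusp6 -0.62 (SE 0.10, adjusted p = 0.00044). The median of all probe sets was -0.14 on the deposited values and 0 after quantile normalization, so part of a small negative value is shared by the whole array.

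Dusp8 had the opposite sign, 0.51 (SE 0.12, adjusted p = 0.0026), since it fell in total RNA and did not on polysomes. The changes of Dusp1, Dusp6 and Dusp8 kept their call in each of the 26 alternatives. Spry2 1436584_at gave -0.41 (SE 0.16, adjusted p = 0.042), and this call was fragile: it was lost after quantile normalization (-0.23, adjusted p = 0.14), without injured polysome replicate 1 (-0.25, adjusted p = 0.054) and with the replicate number as a block within each operation (-0.41, adjusted p = 0.066). Spry1 gave -0.29 and missed the threshold (adjusted p = 0.066), but passed it without injured polysome replicate 2 (-0.41, adjusted p = 0.002). The other members ranged from -0.13 to 0.18. The rise of the 3′ to 5′ Gapdh difference was larger on polysomes (1.96) than in total RNA (1.17). The same measure for Actb rose by 1.58 on polysomes and by 0.34 in total RNA. The part of these shifts in the loading changes was not tested.

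**Figure D4:**
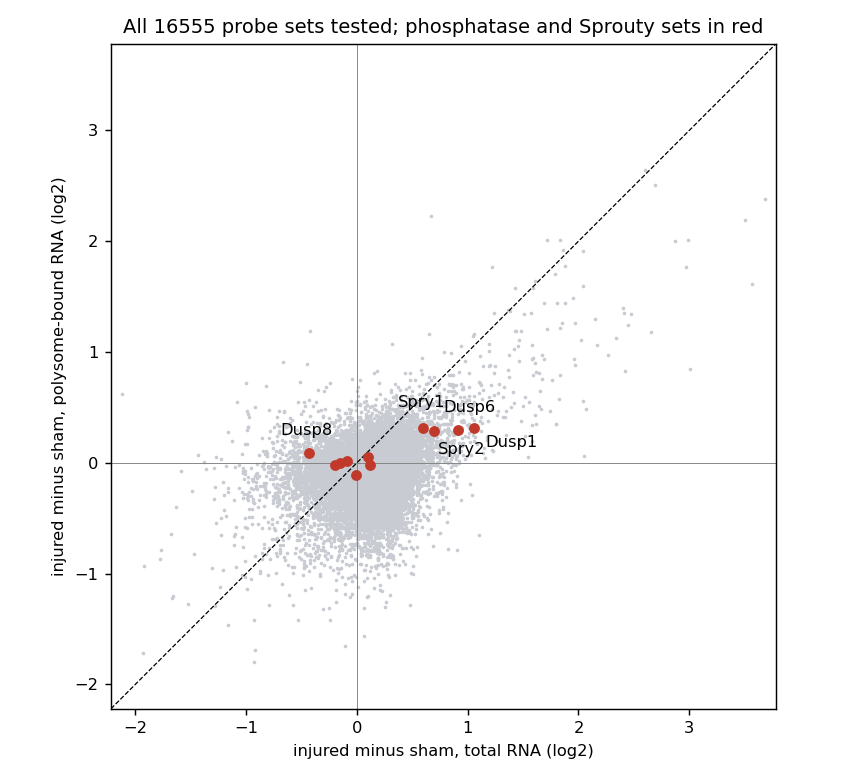
Log2 change with injury on polysomes (vertical axis) against that in total RNA (horizontal axis) for all 16555 probe sets tested, grey, with the phosphatase and Sprouty probe sets in red and a dashed line of equal change. Dusp1, Dusp6, Spry1 and Spry2 1436584_at lie right of and below the line, and Dusp8 lies above it.

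Polysome and total RNA were labelled from 3 µg and 5 µg, so their difference is read against the median of all probe sets, -0.35 in sham and -0.44 in injured cord. The Sprouty messages were lower on polysomes than that median. In sham cord Spry2 1436584_at was -0.96, or -0.60 relative to the median, and Spry1 was -0.73, or -0.37. Of all probe sets, 8% lay lower than this Spry2 value and 18.9% lower than that of Spry1. In injured cord the genes were at -1.37 and -1.01, or -0.93 and -0.57 relative to the median, with 6.06% of all probe sets lower than Spry2 and 2414 of the 16555 lower than Spry1. Their polysome values lay below their total values on every array and under each scaling run.

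Over all 11 probe sets, phosphatase and Sprouty together, the reading depended on the scaling. On the deposited values 9 of the 11 probe sets were lower on polysomes in sham cord and 8 in injured cord, where 62.6% and 73.7% of all probe sets were (81.1% and 86.6% called in either direction). After centring on array medians, 6 were higher and 2 lower in sham, and 6 higher and 3 lower in injured cord, where 50.1% and 50.5% of all probe sets were higher and 23.1% and 26.1% lower. The 2 that were lower in sham cord after centring were Spry1 and Spry2 1436584_at, and in injured cord Dusp1 was lower as well. The fractions did not overlap for 9 members in sham and 8 in injured cord, against 86.9% and 85.2% of all probe sets. Relative to the median of all probe sets, Dusp1 went from 0.04 in sham to -0.62 in injured cord, Dusp6 from 0.31 to -0.22, and Dusp8 from -0.14 to 0.46. Dusp16 stayed near the median (0.07 and 0.02), and Dusp14 stayed above it (0.36 and 0.35). Dusp10 1417164_at in sham cord was -0.11 (limma, adjusted p = 0.048), and this call was fragile: 7 of 27 alternatives kept it. It no longer passed without the filter on low values (adjusted p = 0.054) or with the replicate number as a block (-0.11, adjusted p = 0.069), among others.

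For the gene lists that follow, the shares over all probe sets are those above, 37.4% higher and 22.4% lower in total RNA and 11.8% and 27% on polysomes. Of the other dual specificity phosphatases that were tested, few rose. The list names 15 genes, of which Dusp5, Dusp21, Dusp23 and Dusp28 had no probe set of their own. Of 10 tested (1 probe set, the brightest, per gene), 2 rose and 3 fell in total RNA, and 0 rose and 3 fell on polysomes (limma), with medians of -0.06 and -0.07 against 0.12 and -0.04 over all genes. Dusp7, a close relative of Dusp6 that also acts on ERK, fell by 0.53 in total RNA (SE 0.06, adjusted p = 1.6e-05). After quantile normalization 0 rose and 4 fell in total RNA, and 1 rose and 1 fell on polysomes. Dusp15 fell by 0.36 in total RNA and by 0.75 on polysomes.

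The list of other receptor and Ras inhibitors also holds Trib1, Trib2 and Trib3, which encode pseudokinases rather than inhibitors of receptors or Ras. Of its 12 tested genes, 7 rose and 2 fell in total RNA, and 2 rose and 2 fell on polysomes. The medians were 0.33 and 0.07. After quantile normalization 5 rose and 2 fell in total RNA, and 6 rose and 1 fell on polysomes. Errfi1, an inducible inhibitor of the EGF receptor, rose by 1.11 (SE 0.07, adjusted p = 5.2e-08) in total RNA and by 0.72 on polysomes. Trib1, a pseudokinase, rose by 0.81 and 0.46. Cbl, a ubiquitin ligase that removes active receptors, fell by 0.65 in total RNA.

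The kinases that the phosphatases act on were measured as well. Of 8 MAP kinases tested, 5 rose and 0 fell in total RNA, while 0 rose and 3 fell on polysomes. After quantile normalization the counts were 1 higher in total RNA, and 1 higher and 2 lower on polysomes. Mapk14, the alpha isoform of p38, rose by 0.40 in total RNA and fell by 0.18 on polysomes, a fall that was not called after quantile normalization. Of 18 upstream kinases, 10 rose and 4 fell in total RNA and 4 rose and 3 fell on polysomes, which became 7 and 3, and 6 and 1, after quantile normalization. Map3k6, a stress-activated kinase, rose by 1.59 and 0.79.

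Receptors and ligands that feed the pathway were mixed. Of 11 ligand genes, 7 rose and 1 fell in total RNA, and 1 rose and 5 fell on polysomes. After quantile normalization 4 rose and 2 fell in total RNA, and 2 rose and 1 fell on polysomes. Pdgfa rose by 0.56 in total RNA and 0.50 on polysomes, and Fgf9 fell by 0.44 on polysomes. Of 18 receptor genes, 6 rose and 6 fell in total RNA, and 3 rose and 4 fell on polysomes, or 5 and 7, and 5 and 4, after quantile normalization. Fgfr2, a receptor for fibroblast growth factors, fell by 0.80 and 1.01, while Pdgfra rose by 0.99 and 0.34. Of 10 Ras and adaptor genes, 3 rose and 1 fell in total RNA and 2 rose and 3 fell on polysomes, or 2 and 3, and 4 and 2, after quantile normalization. Ptpn11, a phosphatase that promotes Ras signalling, rose by 0.72 and 0.48.

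Most genes of the fixed list of ERK transcription outputs rose. The list also holds the transcription factors Elk1, Elk3, Elk4 and Srf, and ERK activity was not measured. Of 22 tested, 17 rose and 4 fell in total RNA and 13 rose and 1 fell on polysomes, with medians of 0.48 and 0.31. After quantile normalization 15 rose and 3 fell in total RNA, and 17 rose and 1 fell on polysomes. Fos rose by 1.76 (SE 0.15, adjusted p = 9.2e-07) in total RNA and Junb by 1.16 on polysomes. Both Etv4 and Etv5, ETS factors induced by ERK and named here after their values were seen, fell in total RNA by 0.24 and 0.27. Of 12 genes of the stress-kinase branch, 8 rose and 1 fell in total RNA and 7 rose and 2 fell on polysomes, or 7 and 3, and 8 and 2, after quantile normalization. Gadd45g, an activator of stress kinases, rose by 1.42 and 1.03, and Zfp36, an RNA-binding protein that p38 signalling controls, by 1.37 and 0.77. Mapk8ip1, a scaffold protein of the JNK pathway also named after its values were seen, fell by 1.21 in total RNA and by 0.97 on polysomes.

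**Figure D5:**
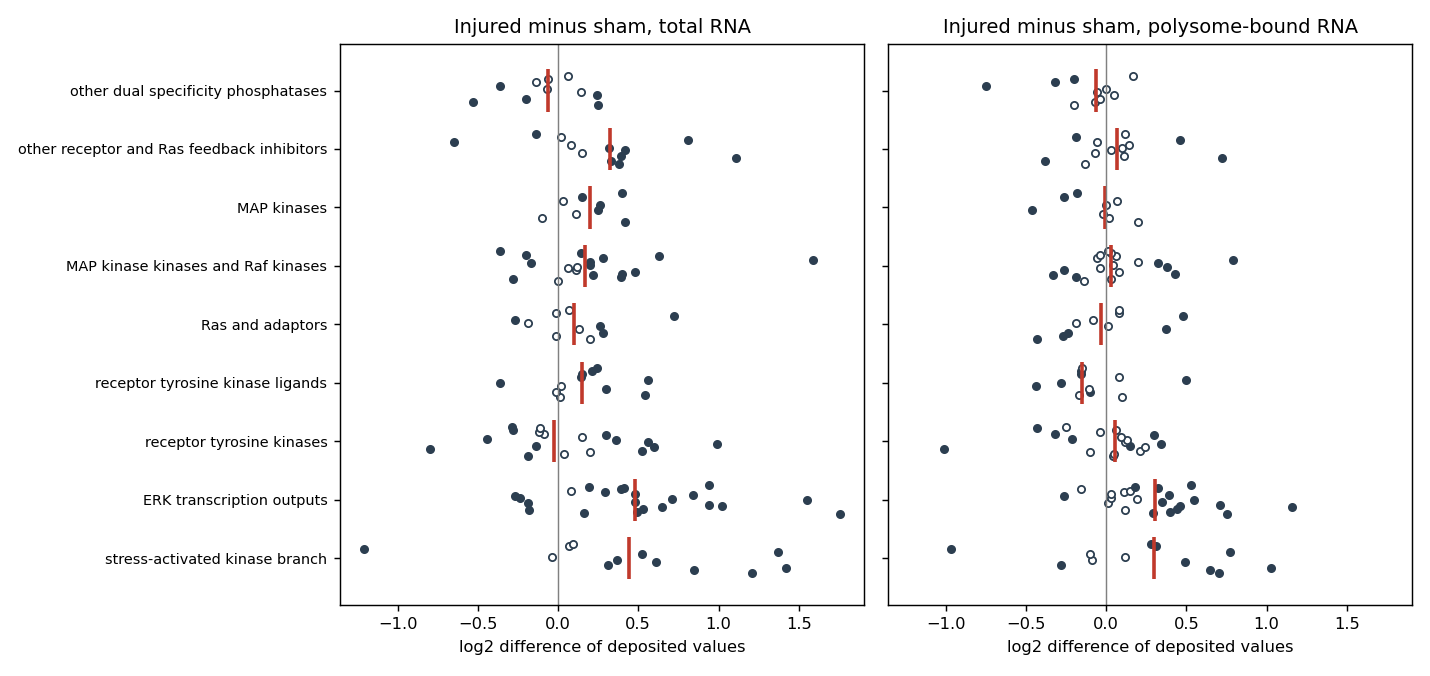
Log2 change with injury (horizontal axis) of each tested gene of the 9 pathway lists (rows) in total RNA and on polysomes. Filled points passed an adjusted p of 0.05, open points did not, and red bars mark list medians, which are highest for the ERK outputs, 0.48 and 0.31.

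Cell type markers moved in the same comparisons. Of 5 monocyte and macrophage markers tested, 4 rose and 0 fell in total RNA, and their summed log2 level went from 10.18 to 10.36 over sham arrays to 10.92 to 11.37 over injured arrays. Cd14 had the largest of these rises, 2.27, and weighs most in the rise of the sum. Lyz2, the brightest of the list on sham total arrays, was not called, with a mean of 9.15 and then 9.23. On polysomes Cd14 rose by 0.97, while Lyz2 fell by 1.04. Ccr2 was not above background on any array, and Ccr1 was above it on no sham total array and on 3 injured ones. Of 8 neutrophil markers, 3 rose and 4 fell (summed 11.27 to 11.70, then 12.01 to 12.70). S100a9 rose by 1.59, while Camp fell by 0.57 and Ngp by 0.64. S100a8 and S100a9 were the brightest of these markers and weigh most in the sum. Astrocyte markers went 5 up and 0 down of 7 (13.81 to 13.88, then 14.22 to 14.26) and microglial markers 0 up and 4 down of 5 (11.44 to 11.54, then 11.19 to 11.31). On polysomes the counts were 2 up and 1 down for monocytes, 2 and 2 for neutrophils, 3 and 3 for astrocytes and 0 and 4 for microglia. After quantile normalization the counts in total RNA, in the same order, were 4 and 0, 3 and 3, 4 and 1, and 0 and 4. On polysomes they were then 2 and 1, 2 and 1, 3 and 2, and 0 and 3. The part of these cells in the changes of Dusp1, Dusp6 and the Sprouty genes was not tested.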

How the data were processed

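RNA from 12 mouse spinal cord samples was measured on Affymetrix arrays from biotin-labelled cRNA. The log2 values, as deposited by the authors, summarise each probe set in 1 value per array. The scale was read from their range (5.26 to 14.65), and the background correction and normalization are not given in the sources used here. Array medians differed between fractions (7.76 and 7.78 in total RNA, 7.25 and 7.18 on polysomes). Depth has no counterpart on arrays, whose number limits the precision.

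Symbols came from the platform annotation: 20380 probe sets named 1 gene, 691 several and 1606 none. A further 13, part of the 64 control probe sets, carried a symbol and were left out. A probe set was tested if 3 or more arrays held it above their percentile 25 (16555 probe sets of 10370 genes). limma 3.58.1 (statmod 1.5.0, R 4.3.3) fitted 4 group means to all 12 arrays, with trended moderation (8 residual and 14.1 total degrees of freedom) and Benjamini-Hochberg adjustment over all probe sets in each of 5 comparisons, at a threshold of 0.05. Errors are limma standard errors or SDs of 3 arrays. The fit was tested on simulated data.

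Members and gene lists were chosen with earlier results of these data known. Beside all member probe sets, up to 3 genes were named per list and injury comparison, those with the lowest adjusted p among called genes whose groups do not overlap; likeness was the root mean square difference over 12 arrays of centred values, skipping clone names. Alternatives were other filters, scalings, moderation, array weights, blocks and leaving out each array. The labels say that both fractions came from 1 homogenate; deviations of same-numbered total and polysome arrays correlated at 0.19, 0.17 and 0.14 in sham and -0.09, 0.06 and 0.04 in injured cord. No labels give a scan or operation batch, and whether replicates were separate animals is not said. The p-values set each difference against the spread between these samples. The main fit held no block for the homogenate shared by both fractions, and fits with a block are among the alternatives. The fixed and random blocks by replicate number also join sham and injured arrays of equal number. Only the block within each operation, chosen after seeing the data, pairs both fractions by number without joining the operations. Promoters were credited to RefSeq, GRCm38.p6.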

Additional observations from a re-analysis of the deposited data

Results flagged for a closer look

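For 4 probe sets the change with injury differed between polysome-bound and total RNA by the test of that difference (limma, adjusted over all probe sets). Dusp1 rose by 1.06 in total RNA and by 0.31 on polysomes, a difference of -0.75. Dusp6 rose by 0.91 and 0.30, a difference of -0.62. Dusp8 fell by 0.43 in total RNA and gave 0.09 on polysomes, a difference of 0.51. Spry2 1436584_at rose by 0.70 in total RNA and gave 0.29 on polysomes, a difference of -0.41, which 13 of 26 alternatives did not keep past the threshold. Of all probe sets, 50.5% passed the same test.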

How the results depend on the processing

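Each result was recomputed under 27 alternatives where it could be, 12 of which left out 1 array. The rises in total RNA of Dusp1 (0.83 to 1.54), Dusp6 (0.81 to 1.39), Spry1 (0.47 to 1.08) and Spry2 1436584_at (0.53 to 1.19), the polysome rises of Dusp1 (0.25 to 0.63) and Dusp6 (0.22 to 0.62) and the loading changes of Dusp1 (-0.91 to -0.42), Dusp6 (-0.78 to -0.42) and Dusp8 (0.35 to 0.74) kept direction and call in all 26 that gave a value. The polysome rise of Spry1 was lost in 3, and that of Spry2 1436584_at was gained in 7. For the values below the cause was not tested, except that stricter filters test fewer probe sets.

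Member probe sets lower in total RNA numbered 1 in place of 2 with the filter at the array median, with the brightest probe set per gene and after quantile normalization over all arrays or within a fraction. On polysomes 5 were higher after quantile normalization over all arrays and 6 within each fraction. For the loading change, 2 were higher after median centring, and leaving out an array gave 1 to 2. In sham cord, polysome against total RNA gave 5 lower at the stricter filter, 5 higher and 5 lower after quantile normalization, and 6 higher and 2 lower after centring. In injured cord it gave 5 higher and 4 lower, and 6 higher and 3 lower.

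Signs of the polysome against total difference turned in sham cord after quantile normalization for Dusp2 (0.02), Dusp6 (0.38), Dusp10 1417163_at (0.31) and 1417164_at (0.37) and Spry2 1421656_at (0.24), and after centring for Dusp1 (0.20), Dusp6 (0.47), Dusp8 (0.01), Dusp10 (0.22 and 0.40), Dusp16 (0.23) and Spry2 1421656_at (0.18). In injured cord they turned after quantile normalization for Dusp2 (0.06), Dusp10 (0.41 and 0.42), Dusp14 (0.48), Dusp16 (0.03) and Spry2 1421656_at (0.27), and after centring for Dusp2 (0.13), Dusp10 (0.48 and 0.45), Dusp14 (0.51), Dusp16 (0.19) and Spry2 1421656_at (0.42).

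Centring on the hybridization controls, chosen after seeing the data, raised every injury change by 0.48 in total RNA and 0.32 on polysomes. In total RNA 10 members were then higher and 0 lower (limma), with turned signs for Dusp2 (0.39), Dusp8 (0.06), Dusp10 1417163_at (0.28), Dusp14 (0.47) and Spry2 1421656_at (0.33). On polysomes 11 were higher, with turned signs for Dusp10 1417163_at (0.30), Dusp14 (0.22) and Dusp16 (0.31). In sham cord 1 was higher and 4 lower on polysomes, and Dusp10 1417164_at gave 0.11.

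The replicate number as a block changed no other call than that of Dusp10 1417164_at in sham cord (-0.11, adjusted p = 0.069 as a fixed and 0.055 as a random effect). As a block within each operation, also chosen after seeing the data, it gave that value an adjusted p of 0.052 and, in injured cord, took Dusp10 1417164_at (-0.15, adjusted p = 0.082) and Spry2 1421656_at (-0.18, adjusted p = 0.057) out of the calls, besides the loading change of Spry2 1436584_at given above. Over all probe sets, calls in total RNA ranged from 3428 to 15012 higher (6184 as reported) and 264 to 5503 lower (3708), on polysomes from 1162 to 10242 (1954) and 742 to 5055 (4465), and for loading from 516 to 3494 (2240) and 3046 to 8146 (6128). Among loading calls the share of higher ones was 26.8%, or 42% with centred arrays and 47.8% with quantile normalization.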
